A study of Mus musculus with 8 samples.

Results

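Expression of the nuclear genes for the mitochondrial respiratory chain and ATP synthase was examined in M0, M1 and M2 macrophages. The genes were those whose annotated symbol started with Nduf, Uqcr, Cox4, Cox5, Cox6, Cox7, Cox8 or Atp5, which gave 86 of the 18193 genes named by the array annotation. These 86 were read by 170 probes, and each gene was followed on the probe with its highest mean log2 intensity. The symbols took in more than subunits: 8 of the 86 were assembly factors of complex I, and Cox7a2l acts in joining complexes into supercomplexes. By complex, 42 belonged to complex I, 8 to complex III, 19 to complex IV (with Ndufa4, which is now counted there, and its relative Ndufa4l2) and 17 to ATP synthase.

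All cells were bone marrow-derived macrophages of wild-type C57BL/6J mice, grown with L929 cell supernatant as the source of macrophage colony stimulating factor and moved on day 7 to medium without it. M0 macrophages (3 arrays) had media alone. M1 macrophages (3 arrays) were given IFN-γ (20 ng/ml) together with the bacterial product LPS (100 ng/ml), and M2 macrophages (2 arrays) were given IL-4 (20 ng/ml), each for 24 hours. The array titles number biological replicates and the design text of the series takes them from different mice, whereas the methods speak of replicates in vitro, and no source ties an array to a particular animal, so p-values measure the spread between arrays, part of which may be technical. Values are RMA intensities, given as units on the linear scale. Differences are on the log2 scale with their standard error (SE), and a gene passed when its Benjamini-Hochberg adjusted p in limma was under 0.05.

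The respiratory chain passes electrons from NADH through complex I, or from succinate through complex II, to coenzyme Q, then through complex III and cytochrome c to complex IV, where oxygen is reduced. Complexes I, III and IV pump protons across the inner mitochondrial membrane, and ATP synthase lets them flow back through a rotating ring of c subunits that drives ATP formation in its F1 head. Macrophages activated by LPS with IFN-γ are known for reliance on glycolysis, and those activated by IL-4 for oxidative metabolism. Transcription factors NRF1, GABPA, YY1 and the estrogen-related receptors (ERR) are known regulators of genes of this kind, while GAS and ISRE elements bind the STAT and IRF factors downstream of interferons.

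Upstream sequence was available for 71 of the 86 genes and is shown for 5 of them. Atp5g2, Atp5k and Ndufaf4 are shown because they share a motif while the first 2 were lower and the third was higher in M1, Cox6b1 because its M1 call held whichever array was left out, and Ndufaf3 for the largest difference. The sequences are 150 bases that end at the base before the annotated start, 5′ to 3′ on the strand of the gene, from RefSeq on mouse build GRCm38.p6. Capitals mark the NRF1 motif (10 letters, with any base at the sixth) or the GABPA motif (CCGGAAG, or its reverse complement). Atp5g2 (chr15:102671048-102671197, minus strand) and Atp5k (chr5:108434400-108434549, minus strand), both membrane subunits of ATP synthase that were lower in M1 than M0 macrophages, had the NRF1 motif. So did Ndufaf4 (chr4:24897933-24898082, plus strand), an assembly factor that was higher in both M1 and M2. Cox6b1 (chr7:30626115-30626264, minus strand), a complex IV subunit lower in M1, had the GABPA motif. Ndufaf3 (chr9:108567437-108567586, minus strand), the member with the largest difference in M1, had none of the motifs searched.
Atp5g2: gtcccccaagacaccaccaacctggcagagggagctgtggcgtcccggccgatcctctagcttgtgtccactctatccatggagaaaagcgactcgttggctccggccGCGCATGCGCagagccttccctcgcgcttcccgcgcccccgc
Atp5k: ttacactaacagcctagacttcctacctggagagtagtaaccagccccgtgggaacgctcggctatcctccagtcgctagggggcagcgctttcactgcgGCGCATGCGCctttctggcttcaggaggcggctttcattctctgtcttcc
Ndufaf4: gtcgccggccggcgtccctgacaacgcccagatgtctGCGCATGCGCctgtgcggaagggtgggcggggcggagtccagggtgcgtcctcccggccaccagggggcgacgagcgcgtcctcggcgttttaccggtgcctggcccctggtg
Cox6b1: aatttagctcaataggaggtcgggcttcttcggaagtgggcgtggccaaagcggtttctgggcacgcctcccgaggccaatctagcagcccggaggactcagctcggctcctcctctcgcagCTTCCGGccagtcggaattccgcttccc
Ndufaf3: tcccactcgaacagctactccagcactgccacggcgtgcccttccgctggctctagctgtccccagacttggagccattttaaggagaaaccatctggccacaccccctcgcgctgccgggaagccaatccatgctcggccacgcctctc

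Within 250 bases before the start and on either strand, the NRF1 motif was found in 10 of the 71 members (14.1%), in 7.0% of the 14452 named genes with a promoter and in 4.23% of all 27025 promoter genes. The GABPA motif was found in 13 members (18.3%), against 11.8% of named genes and 7.83% of all genes. Each motif was counted separately, so a gene could count for several. The other motifs were rare or no more frequent among the members: YY1 (AAGATGGCG) in 1 member, Atp5j, ERR (TCAAGGTCA) in 1, Atp5g3, GAS (TTCNNNGAA) in 5 members (7.04%, named genes 7.42%) and the ISRE motif in 2 (2.82%, named genes 3.13%). Of the 10 members with the NRF1 motif, 2 were higher in M1 than M0 (Ndufaf4 and Ndufs5), 2 were lower (Atp5g2 and Atp5k) and 6 did not pass. Of the 13 with the GABPA motif, 2 were higher, 5 were lower and 6 did not pass. These matches describe letters in a window and do not show binding.

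The cultures carried the markers of macrophages: all 7 macrophage genes examined had a mean over the 8 arrays of at least 64 units. Their summed intensity was 74495 to 76278 units in M0, 72526 to 74182 in M1 and 52709 to 56408 in M2. In M1, 1 of the 7 was higher and 2 were lower than in M0. In M2, 4 were lower than in M0, 3 of them by at least 2-fold. Of 32 markers of other cell types, only Cd4, Col1a2 and the muscle gene Ckm had a mean of at least 64 units. No marker was at 0, which RMA values do not reach. Camp, Dcn and Lum were higher and Cd4 and Cd79b lower in M1 than M0, and the summed intensity of 5 fibroblast markers was 129 to 160 units in M0, 190 to 327 in M1 and 148 to 244 in M2. The part of these shifts in the results was not tested. The ratio of 3′ to 5′ control probes was 0.947 to 1.04 for Gapdh and 1.10 to 1.18 for beta-actin with no separation of the groups, and array medians were 38.9 to 40.4 units. In RNA of whole cultures, fewer cells of a type and less RNA per cell cannot be told apart.

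Most respiratory genes did not pass between M1 and M0 macrophages (58 of 86), and those that passed changed in both directions. In M1 vs. M0, 10 of the 86 members were up-regulated (11.6%), where 13.7% of all named genes were, and 18 were down-regulated (20.9%), where 11.5% of all named genes were. Among named genes with a mean of at least 64 units, which 79 of the members reached, 22.6% were higher and 18.3% lower. The share of members lower in M1 was therefore above that of all named genes and nearer to that of brighter genes, and the share higher was below both. The median log2 difference was −0.05 over the members and 0.02 over all named genes. Only Ndufaf3 passed with a difference of at least 2-fold, as higher in M1, where 2.8% of all named genes were higher and 3.2% lower by that much. With each array centred on its median, 12 members passed as higher and 14 as lower, so the balance of directions depended on the scaling. The methods' t-test with the same adjustment called 5 members higher and 10 lower.

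In M2 vs. M0, 6 members were up-regulated (6.98%, all named genes 8.03%) and 1 was down-regulated (1.16%, all named genes 6.43%). Of brighter named genes, 13.1% were higher and 10.6% lower. None differed by 2-fold or more, as 1.91% of all named genes did upward and 1.76% downward. The median difference was 0.08 over the members and 0.01 over all named genes. The median of the members relative to the M0 mean was 0.14 on 1 M2 array and 0.01 on the other, as against 0.05, 0.00 and −0.05 for M0 and −0.07, 0.03 and −0.11 for M1, so these ranges overlapped. In M1 vs. M2, 3 members were higher (3.49%, all named genes 11.5%) and 18 lower in M1 (20.9%, all named genes 12.3%). Of brighter named genes, 18.5% were higher and 19.5% lower. The share of members lower in M1 was therefore near that of brighter genes, and the share higher was below it. Again Ndufaf3 alone differed by 2-fold or more (all named genes 3.42% upward and 4.0% downward). With the methods' t-test after adjustment, none of the 18 lower calls in M1 vs. M2 was left and 1 of the 3 higher ones was, where 2.16% of all named genes were lower and 2.61% higher. Without adjustment it called 21 members lower in M1 vs. M2, among them 16 of the 18. In M2 vs. M0 it called 2 members higher and none lower after adjustment, and 16 and 5 without. Of those 2, only 1 was among the 6 that passed in limma. M1 and M2 were set against the same M0 arrays, and the values of the comparisons are therefore given side by side.

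These counts rested on few arrays, named here by group and replicate number (M0-1 is M0 replicate 1). Of the 28 members that passed in M1 vs. M0, 14 still passed whichever single array was left out: Ndufaf3, Ndufaf4, Ndufaf6, Ndufs4, Uqcrc2 and Cox6a2 as higher, and Atp5e, Atp5g2, Atp5j2, Atp5k, Cox6b1, Ndufa4, Ndufb11 and Uqcrh as lower. The number higher was 6 without M0-2, M0-3 or M1-2. The number lower was 9 without M0-2, 10 without M1-1 or M1-3 and 11 without M0-1. None of the 7 M2 calls held through the removal of each array: the number higher in M2 was 0 without M2-1, 1 without M2-2 and 3 without M0-2 or M0-3. The single lower call in M2, Ndufa2, was lost without any 1 of M0-1 to M0-3, M1-1 or either M2 array, and a second appeared without M1-3. In M1 vs. M2 the number lower was 3 without M2-1, and the number higher was 5 without M1-3 and 1 without M2-2.

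**Figure D1:**
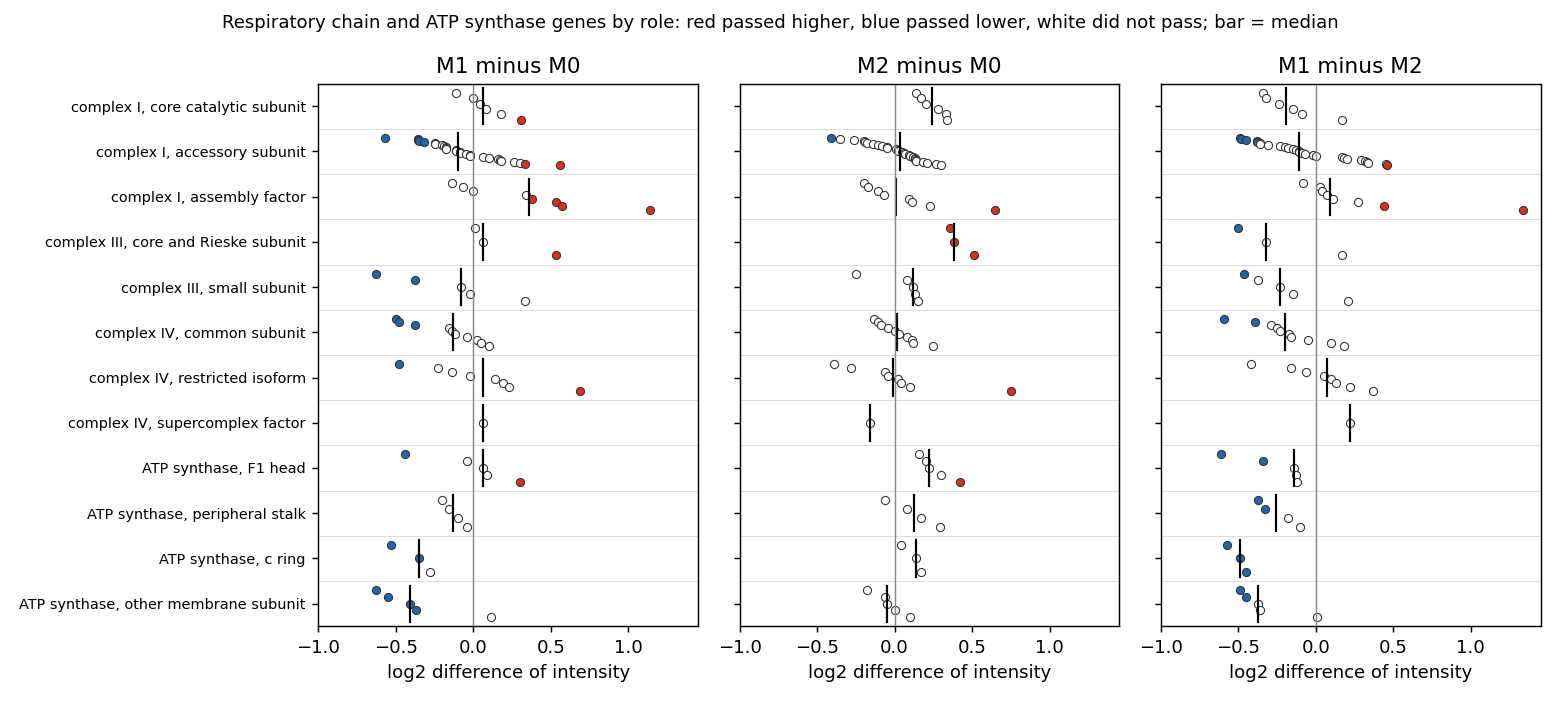
Log2 difference of intensity (x axis) of each of the 86 genes in M1 minus M0, M2 minus M0 and M1 minus M2, in rows by complex and role. Each point is a gene, red where it passed as higher, blue where it passed as lower and white where it did not pass, and the black bar is the median of the row. Ndufaf3 stands apart at 1.14 in M1 minus M0, and the c ring and the other membrane subunits of ATP synthase have medians of −0.35 and −0.41 there.

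**Figure D2:**
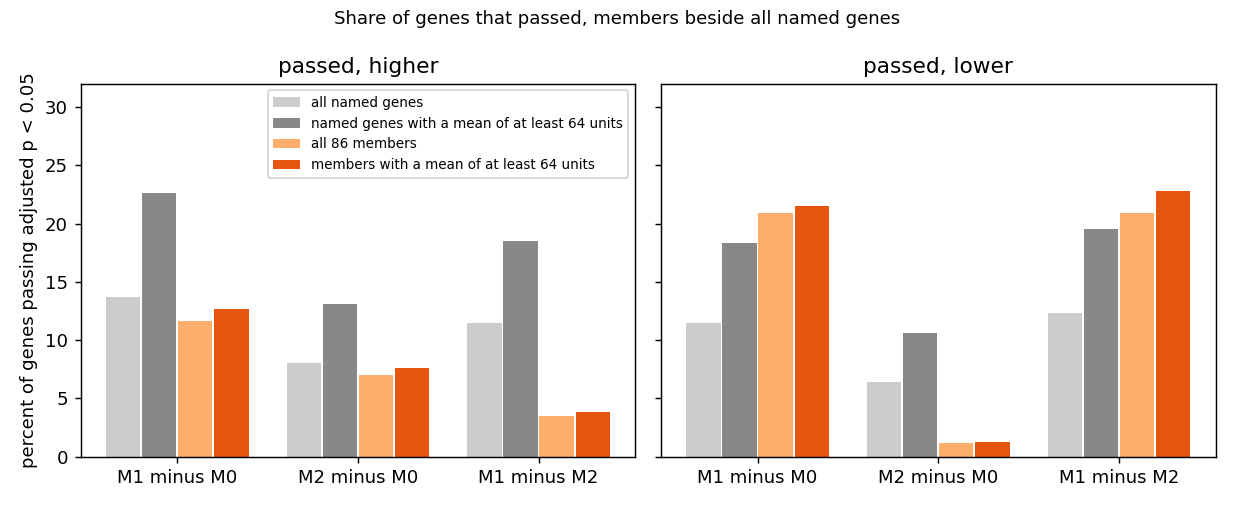
Percent of genes (y axis) that passed as higher (left) or lower (right) in each comparison, for all named genes, named genes with a mean of at least 64 units, all 86 members and members with such a mean. In M1 minus M0 the bars for lower genes are 11.5% for all named genes, 18.3% for brighter named genes, 20.9% for the members and 21.5% for brighter members.

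Complex I takes electrons from NADH. Of its 42 genes, 7 were up-regulated (16.7%) and 5 down-regulated (11.9%) in M1 vs. M0, with a median difference of −0.02. These shares were close to the 13.7% and 11.5% of all named genes and below the 22.6% and 18.3% of brighter ones. In M2 vs. M0 1 was up-regulated and 1 down-regulated (2.38% each, all named genes 8.03% and 6.43%, brighter ones 13.1% and 10.6%), with a median of 0.08. Without any 1 of M0-1 to M0-3, M1-1 or M1-2 the number higher in M1 was 4. The number lower in M1 was 3 without M0-3 and 1 without M0-1, M0-2, M1-1 or M1-3. The genes that passed as higher were mostly assembly factors, which help to build the complex and are not part of the finished enzyme: 4 of 8 were up-regulated in M1 and none was down-regulated, with a median of 0.36.

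Ndufaf3, which acts early in assembly together with Ndufaf4, read 606, 506 and 492 units in M0, 1135, 1228 and 1156 in M1, and 470 and 458 in M2. Every M1 array lay well above all the others. The mean rose 2.2-fold, from 534 ± 62 units in M0 (SD, n = 3) to 1173 ± 48.7 in M1 (SD, n = 3), a log2 difference of 1.14 (SE 0.11, adjusted p = 8.4e-06), while M2 vs. M0 differed by −0.20 (SE 0.12, adjusted p = 0.356) and M1 vs. M2 by 1.34 (SE 0.12, adjusted p = 4.6e-06). Dalrd3, the neighbouring gene, which was looked up after these values had been seen, had means of 303 ± 14.5, 290 ± 7.1 and 273 ± 5.96 units (SD, n = 3, 3 and 2) in M0, M1 and M2 and did not pass (M1 vs. M0 −0.06, adjusted p = 0.735).

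Ndufaf4 was higher in both activated states. It read 299, 279 and 256 units in M0, 357, 489 and 403 in M1, and 437 and 435 in M2, so that neither activated group overlapped with M0. The difference was 0.57 in M1 (SE 0.12, adjusted p = 0.00471) and 0.65 in M2 (SE 0.14, adjusted p = 0.00783), the latter lost without either M2 array (0.65 and 0.66). Another probe of Ndufaf4 with at least 64 units had the same sign in M1 but did not pass.

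Ndufaf6, a further assembly factor, read 123, 113 and 118 units in M0, 163, 183 and 164 in M1, and 140 and 112 in M2. Only M1 was clear of M0, by 0.53 (SE 0.11, adjusted p = 0.00383). Ndufaf1, which works with Ecsit in assembly of the membrane arm, differed by 0.38 in M1 (adjusted p = 0.0454), a call lost without any 1 of M0-1 to M0-3, M1-1 or M1-2 (0.27 to 0.42). Ndufaf5 (0.34), Ndufaf2 (0.00), Ndufaf7 (−0.07) and Ndufaf8 (−0.14) did not pass in M1.

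Among the 6 core catalytic subunits of complex I measured, Ndufs3, part of the arm that hands electrons to coenzyme Q, was the only 1 to pass. It read 2354, 2241 and 2276 units in M0, 2816, 3041 and 2658 in M1, and 2527 and 2519 in M2. The M1 arrays lay above all others, by 0.31 relative to M0 (SE 0.09, adjusted p = 0.0372), and the call was lost without any 1 of M0-1 to M0-3, M1-1 or M1-2 (0.26 to 0.33). M1 vs. M2 did not pass for Ndufs3 (0.17, adjusted p = 0.347). The iron-sulfur and flavin subunits Ndufs1, Ndufv2, Ndufs7, Ndufv1 and Ndufs8 differed by −0.11 to 0.18 in M1 and by 0.17 to 0.34 in M2, and none passed on the probe followed. Of 2 further Ndufv1 probes, 1 passed as higher in M2 vs. M0 (0.37, adjusted p = 0.0407) and the other did not (0.38, adjusted p = 0.0854).

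Of 28 accessory subunits, which surround the core, 2 were up-regulated (7.14%) and 5 down-regulated (17.9%) in M1, with a median of −0.10. Of brighter named genes, 22.6% were higher and 18.3% lower. Ndufs4, an accessory subunit whose loss causes Leigh syndrome, read 537, 524 and 508 units in M0, 783, 785 and 743 in M1, and 584 and 535 in M2. It was higher on every M1 array than on any other, by 0.56 relative to M0 (SE 0.09, adjusted p = 0.00083) and by 0.46 relative to M2 (SE 0.10, adjusted p = 0.00691). Ndufs5, on the intermembrane side, differed by 0.33 in M1 (adjusted p = 0.0472), a call lost without any 1 of 7 arrays, all but M1-3 (0.25 to 0.38).

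The 5 accessory subunits lower in M1 all belong to the membrane arm, as do many accessory subunits that did not pass. The accessory subunits of that arm were not counted, so no share of it is given. Ndufb11 read 2313, 2010 and 1822 units in M0, 1278, 1470 and 1389 in M1, and 2020 and 1550 in M2. All M1 arrays lay below all M0 and M2 arrays, and intensity fell by 32.5% relative to M0 (log2 difference −0.57, SE 0.13, adjusted p = 0.0067). On this probe M1 vs. M2 did not pass (−0.36, adjusted p = 0.109). Ndufa1 (−0.36), Ndufb5 (−0.36), Ndufb10 (−0.35) and Ndufb2 (−0.32) passed with adjusted p of 0.0202, 0.0296, 0.0477 and 0.0365. These 4 calls were lost without M0-1, M0-2, M1-1 or M1-3, and those of Ndufb10 and Ndufb2 also without M0-3, with differences of −0.40 to −0.28 where lost. Accordingly the number of accessory subunits lower in M1 was 1 without any 1 of the first 4 of these arrays and 3 without M0-3, and that of higher ones was 1 without any 1 of the 7 arrays other than M1-3.

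Ndufa2, an accessory subunit near the site of NADH oxidation, was the only member to pass as lower in M2. It read 2748, 2487 and 2334 units in M0, 2360, 2426 and 2201 in M1, and 2022 and 1787 in M2. Both M2 arrays lay below the rest (M2 vs. M0 −0.41, SE 0.12, adjusted p = 0.0404), with the call lost as described above (−0.49 to −0.32). M1 vs. M2 did not pass for Ndufa2 (0.29, adjusted p = 0.112). The probe for Ndufb4 had means of 10.5 to 13.2 units and gave no usable level.

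Complex III passes electrons from coenzyme Q to cytochrome c. Of its 8 genes, 1 was up-regulated (12.5%) and 2 down-regulated (25.0%) in M1 vs. M0, where 13.7% and 11.5% of all named genes were. In M2 vs. M0, 3 were up-regulated (37.5%, all named genes 8.03% and brighter ones 13.1%). Its core subunits made up 3 of the 6 members up-regulated in M2: all of Uqcrc1, Uqcrc2 and Uqcrfs1 passed there, and Uqcrc2 also in M1 vs. M0. The number higher in M2 was 1 without any 1 of M0-1 to M0-3 or M2-2, and 0 without M2-1, and the methods' t-test after adjustment called none of them.

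Uqcrc1, a core protein related to mitochondrial processing peptidases, read 3164, 3200 and 2978 units in M0, 3041, 3082 and 3303 in M1, and 4697 and 4176 in M2. Both M2 arrays were above all others, whereas M0 and M1 overlapped. M2 was higher than M0 by 0.51 (SE 0.11, adjusted p = 0.00844), or 0.42 and no longer passing without M2-1, and M1 was lower than M2 (−0.50, SE 0.11, adjusted p = 0.00581), or −0.41 and no longer passing without that array.

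Uqcrc2, the other core protein, read 1746, 1675 and 1590 units in M0, 2461, 2493 and 2298 in M1, and 2191 and 2101 in M2. The groups did not overlap and M1 was the highest, although M1 vs. M2 did not pass (0.17, adjusted p = 0.33). The difference was 0.53 in M1 (SE 0.09, adjusted p = 0.00125) and 0.36 in M2 (SE 0.10, adjusted p = 0.0424), and the M2 call was lost without any 1 of 6 arrays, all but M1-2 and M1-3 (0.33 to 0.39). Another probe of Uqcrc2 with at least 64 units had the same sign in M2 and did not pass. Uqcrfs1, the Rieske iron-sulfur protein, read 1788, 1784 and 1628 units in M0, 1718, 1939 and 1770 in M1, and 2268 and 2235 in M2, a difference of 0.38 in M2 (SE 0.11, adjusted p = 0.0396) that was lost without any 1 M0 or M2 array (0.33 to 0.40).

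Of the 5 small subunits of complex III, 2 were down-regulated in M1 and 3 did not pass. Uqcrh, the hinge protein that aids transfer to cytochrome c, read 2363, 2612 and 2990 units in M0, 1979, 1657 and 1528 in M1, and 2536 and 1941 in M2. The M1 arrays were below all M0 arrays, with M2 overlapping both, and intensity in M1 fell by 35.2% relative to M0 (log2 difference −0.63, SE 0.14, adjusted p = 0.00588). Uqcr11 was also lower in M1 (−0.38, adjusted p = 0.0199), but not without M0-2, M0-3 or M1-3 (−0.39 to −0.35), so that 1 of the 2 calls was left there. Uqcrq (0.33, adjusted p = 0.0622), Uqcrb (−0.02) and Uqcr10 (−0.08) did not pass, and 1 small subunit passed as higher without M0-1 or either M2 array.

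Complex IV reduces oxygen. Of its 19 genes, 1 was up-regulated (5.26%, all named genes 13.7%) and 4 were down-regulated (21.1%, all named genes 11.5% and brighter ones 18.3%) in M1 vs. M0, with a median of −0.04. In M2 1 was up-regulated (5.26%, all named genes 8.03%), with a median of 0.00. Among the 10 widely expressed subunits, 3 were lower in M1. Cox6b1, which joins the monomers of the enzyme on the intermembrane side, read 5560, 5521 and 5319 units in M0, 3798, 4255 and 3595 in M1, and 5192 and 4968 in M2. M1 was below both other groups without overlap, and fell by 29.1% relative to M0 (log2 difference −0.50, SE 0.10, adjusted p = 0.0029).

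Ndufa4, once assigned to complex I, read 2183, 2224 and 2123 units in M0, 1545, 1668 and 1487 in M1, and 2485 and 2241 in M2. Again all M1 arrays lay lowest: the difference was −0.48 against M0 (SE 0.10, adjusted p = 0.00335) and −0.59 against M2 (SE 0.11, adjusted p = 0.00171). AA467197, a gene related to Ndufa4 but outside the chosen symbols, moved the other way in M1 and was also higher in M2. It read 79.8, 49.2 and 60.0 units in M0, 2698, 1468 and 2054 in M1, and 1111 and 1436 in M2. The difference was 5.02 in M1 (SE 0.22, adjusted p = 1.8e-08) and 4.35 in M2 (SE 0.24, adjusted p = 2.5e-07). Ndufa4 itself did not pass in M2 vs. M0 (0.12, adjusted p = 0.588). Ndufa4l2, a relative induced by hypoxia in other cells, had means of 70.1 to 92.1 units and did not pass.

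Of the remaining widely expressed subunits, Cox7a2 alone passed in M1. It was lower (−0.38, adjusted p = 0.016), a call lost without M0-1, M0-2, M1-1 or M1-3 (−0.38 to −0.34). Cox6c (−0.16), Cox4i1 (−0.14), Cox8a (−0.12), Cox5b (−0.04), Cox6a1 (0.02) and Cox5a (0.10) did not pass in M1, nor in M2. The Cox7c probe was dim, with means of 43.3 to 46.7 units.

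Of the 8 isoforms typical of particular tissues or conditions, 5 were under 64 units: Cox4i2, Cox6b2, Cox7a1, Cox7b2 and Cox8b. Cox6a2, the isoform of heart and skeletal muscle, was higher in both activated states. It read 448, 318 and 323 units in M0, 500, 653 and 588 in M1, and 604 and 598 in M2. Both activated groups lay above M0 without overlap, although M0-1 came near the lowest M1 array. The difference was 0.69 in M1 (SE 0.14, adjusted p = 0.00415) and 0.75 in M2 (SE 0.16, adjusted p = 0.00921), the M2 call being lost without either M2 array (0.74 and 0.75). Muscle markers summed to 128 to 148 units in M0, 126 to 153 in M1 and 132 to 162 in M2. Cox7a1, also a muscle isoform, passed as lower in M1 at a dim level (25.1 ± 2.96 against 18 ± 2.52 units, SD, n = 3 each, log2 difference −0.48, adjusted p = 0.0178), but not without M0-3 or M1-2 (−0.39 and −0.38). Cox8c (−0.23 in M1 and −0.28 in M2) and the supercomplex factor Cox7a2l (0.06 and −0.16) did not pass, although another probe of Cox8c passed as higher in M1 (0.45, adjusted p = 0.022).

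Of the 4 complexes, ATP synthase had the largest share of lower genes in M1. Of 17 genes, 7 (41.2%) were down-regulated in M1 vs. M0, where 11.5% of all named genes and 18.3% of brighter ones were, and 1 was up-regulated (5.88%, all named genes 13.7%). The median was −0.20, and 13 of 17 differences were below 0. In M1 vs. M2, 9 of 17 (52.9%) were lower in M1, where 12.3% of all named genes and 19.5% of brighter ones were, with a median of −0.36, and 16 of 17 differences were below 0. The methods' t-test after adjustment left 5 of these 17 genes lower in M1 vs. M0 (29.4%, all named genes 6.83%) and none in M1 vs. M2. M2 vs. M0 gave 1 higher gene and a median of 0.14. The number lower in M1 was 4 without M0-2 or M1-1, and the number lower in M1 than M2 was 2 without M2-1.

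Of the 7 lower genes, 6 encode the membrane part of the enzyme. Of 5 membrane subunits other than the c ring and the stalk, 4 were lower in M1: Atp5j2 (subunit f), Atp5k (subunit e), Atp5l (subunit g) and Atp5mpl. This number was 2 without M0-2, M0-3, M1-1 or M1-3. Atp5j2 read 2640, 2521 and 2403 units in M0, 1607, 1842 and 1446 in M1, and 2450 and 2010 in M2. Atp5k read 3937, 3984 and 3765 units in M0, 2596, 2831 and 2535 in M1, and 3884 and 3582 in M2.

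For both, every M1 array was below every M0 and M2 array. The differences in M1 vs. M0 were −0.63 for Atp5j2 (SE 0.12, adjusted p = 0.00189) and −0.55 for Atp5k (SE 0.10, adjusted p = 0.00107), and neither passed in M2 vs. M0 (−0.18 and −0.06). Atp5mpl (−0.41, adjusted p = 0.0219) was not called without M0-2, M0-3, M1-1 or M1-3, and Atp5l (−0.37, adjusted p = 0.028) not without these or M0-1 (−0.40 to −0.31). Atp5md differed by 0.11 and did not pass.

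The c ring carries the protons. Its protein is encoded by 3 genes that differ in the targeting sequence, and 2 of them were lower in M1 than M0 and all 3 lower in M1 than M2. Atp5g2, which carries the NRF1 motif shown above, read 3420, 3435 and 3134 units in M0, 2145, 2543 and 2250 in M1, and 3407 and 3429 in M2. M1 lay apart from M0 and M2, which overlapped, by −0.53 against M0 (SE 0.10, adjusted p = 0.00221) and −0.57 against M2 (SE 0.11, adjusted p = 0.00316).

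Atp5g3 read 8090, 7775 and 7488 units in M0, 5553, 6407 and 6380 in M1, and 8768 and 8337 in M2, with M1 lowest and no overlap. The difference was −0.35 in M1 vs. M0 (SE 0.10, adjusted p = 0.0239) and did not pass without M0-1, M0-2 or M1-1 (−0.35 to −0.28). Atp5g1 differed by −0.28 (adjusted p = 0.0629) in M1 vs. M0 and by −0.45 (adjusted p = 0.0109) in M1 vs. M2. Without M0-1, M0-2 or M1-1, 1 c-ring gene was lower in M1 than M0, and without M2-1, 1 was lower in M1 than M2.

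In the F1 head, which makes ATP, the subunits parted. Atp5b, the catalytic beta subunit, read 5337, 5394 and 5293 units in M0, 6270, 6709 and 6724 in M1, and 7154 and 7094 in M2. Both activated groups were above M0 without overlap, by 0.30 in M1 (SE 0.09, adjusted p = 0.0346) and 0.42 in M2 (SE 0.10, adjusted p = 0.0178). The M1 call was lost without any 1 M0 array, M1-2 or M1-3 (0.28 to 0.30) and the M2 call without M0-2, M0-3 or either M2 array (0.41 and 0.42).

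Atp5e, the small epsilon subunit of the rotor, went the other way in M1. It read 2229, 2331 and 2305 units in M0, 1686, 1762 and 1603 in M1, and 2753 and 2384 in M2. The M1 arrays were lowest and the M2 arrays highest, with no overlap. The difference was −0.44 in M1 vs. M0 (SE 0.10, adjusted p = 0.00587) and −0.61 in M1 vs. M2 (SE 0.11, adjusted p = 0.00163), and M2 vs. M0 did not pass (0.16, adjusted p = 0.423). Atp5a1 (alpha), Atp5c1 (gamma) and Atp5d (delta) differed by −0.04, 0.09 and 0.06 in M1 and by 0.30, 0.22 and 0.20 in M2, and none passed against M0 on the probe followed. A dimmer probe of Atp5a1 (mean 130 units) passed as higher in M2 vs. M0 (0.60, adjusted p = 0.00694), and another did not (0.33, adjusted p = 0.0519). Atp5a1 was lower in M1 than M2 (−0.34, adjusted p = 0.0384), 1 of 2 such F1 genes with Atp5e, and was lost without any 1 array but M1-3.

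The 4 genes of the peripheral stalk, which holds the head still, did not pass in M1 or M2 against M0. Their differences were −0.20 (Atp5j), −0.16 (Atp5pb), −0.10 (Atp5h) and −0.04 (Atp5o) in M1, and 0.17, −0.06, 0.08 and 0.29 in M2. Atp5j (−0.37, adjusted p = 0.0272) and Atp5o (−0.33, adjusted p = 0.0439) were lower in M1 than M2, a number of 2 that was 1 or 0 whichever single array was left out.

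**Figure D3:**
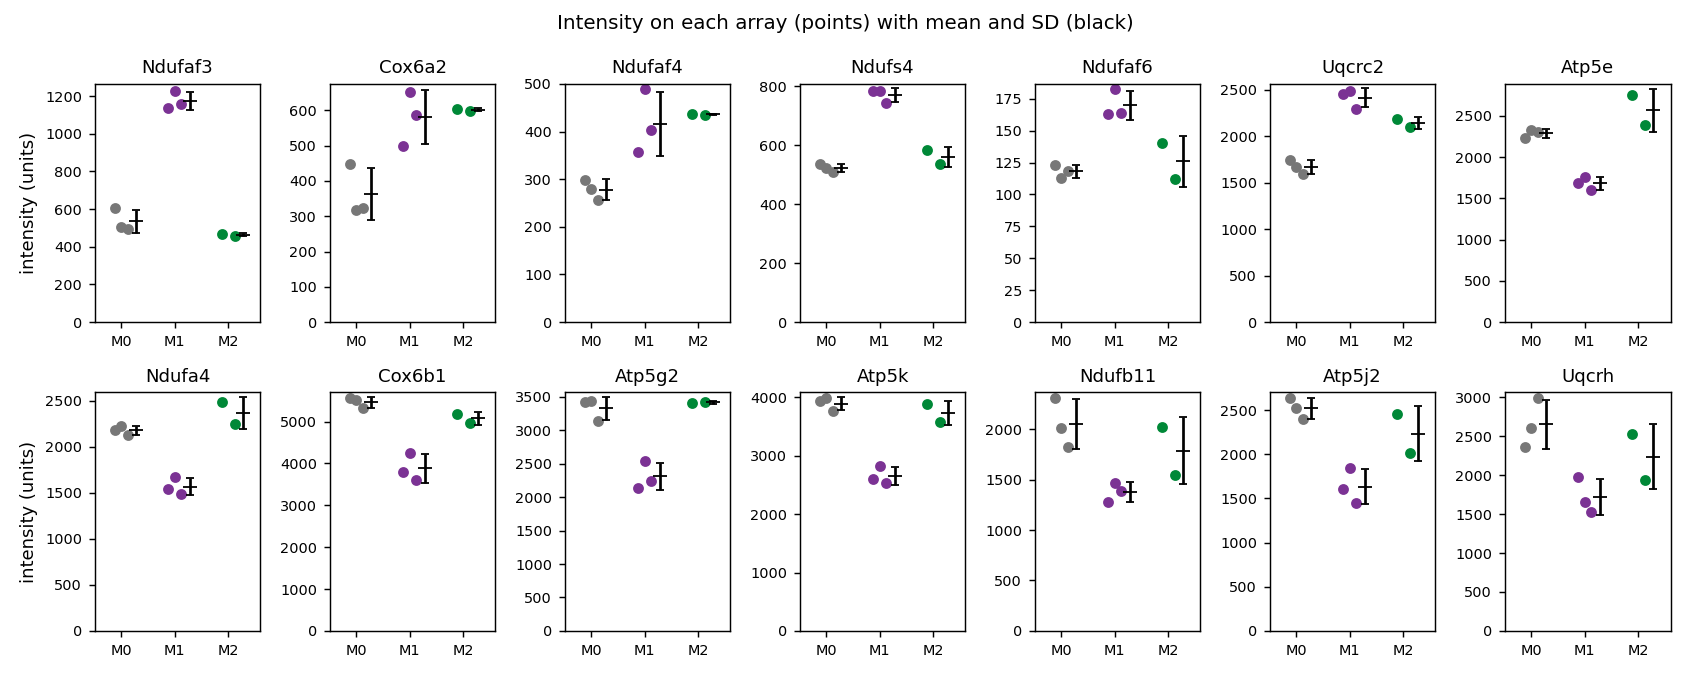
Intensity in units (y axis, from 0) on each array for the 14 members whose M1 vs. M0 call held whichever single array was left out, with arrays as points by group (M0, M1, M2) and the mean with its SD in black. The upper row begins with the 6 genes higher in M1, of which Cox6a2 and Ndufaf4 were at a similar level in M2, and the 8 genes lower in M1 follow.

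**Figure D4:**
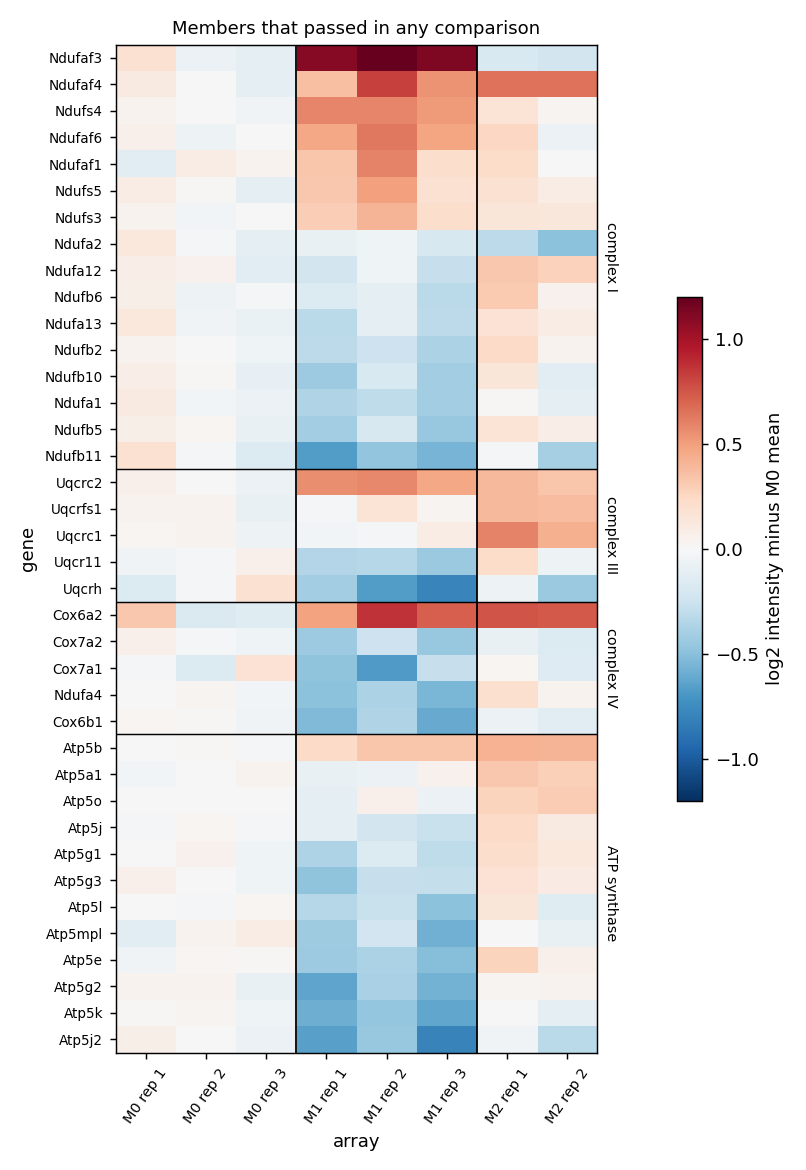
Log2 intensity minus the M0 mean (colour) on each of the 8 arrays (columns) for the 38 members that passed in any of the 3 comparisons (rows, by complex). The M1 columns are blue for most rows of ATP synthase, while complex I holds both the red rows of the assembly factors and blue rows of several accessory subunits.

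Of the 28 members that passed in M1 vs. M0, 12 had another probe with a mean of at least 64 units, and all 12 had the same sign and 11 the same call. Of the 7 in M2 vs. M0, 3 had such a probe, with the same sign in 3 and the same call in 2. Of the members that did not pass, 31 had such a probe in M1 vs. M0, which passed for 1 of them (Cox8c), and 40 in M2 vs. M0, which passed for 2 (Atp5a1 and Ndufv1). In M1 vs. M2, 6 of 10 members that passed and had such a probe did not pass on another probe (Atp5o, Cox6b1, Ndufa12, Ndufb5, Ndufb6 and Ndufs4), and 5 of 33 that did not pass did so on another (Cox5b, Cox8c, Ndufb11, Ndufc2 and Ndufs8). For 38 members a single probe was available, and Cox7b, Ndufa11 and Ndufs6 had no probe with a single symbol and were not analysed here.

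Other genes of the pathway, from lists of which 125 of 137 entries were found, were set beside the members. Of 4 complex II genes, Sdhc was lower in M1 (−0.49, adjusted p = 0.00428) and none passed in M2. The carrier Cycs, cytochrome c, was higher in M1 (0.73, adjusted p = 0.00046), and Cyc1, the cytochrome c1 of complex III, was higher in M1 (0.62, adjusted p = 0.00131) and in M2 (0.58, adjusted p = 0.00832, or 0.52 and no longer passing without M2-2), while Cyct was dim. Among all named genes 13.7% were higher and 11.5% lower in M1 vs. M0, and among brighter ones 22.6% and 18.3%. In M2 vs. M0 the shares were 8.03% and 6.43% of all named genes, and 13.1% and 10.6% of brighter ones. The lists, most of them short, are given as counts to be read against these shares. Of 11 assembly factors for complex I outside the chosen symbols, 4 were higher, led by Ecsit (0.61), and 2 lower (Dmac1 −1.11 and Tmem126b −0.56, of which 1 was left without M0-2, M0-3, M1-1 or M1-3). For complex II, 3 of 4 were higher (Sdhaf1 1.22, Sdhaf2 0.50, Sdhaf3 0.41) and Sdhaf4 lower (−0.48). For complex III, Ttc19 (0.95) was the only 1 of 6 higher, or 1 of 2 without either M2 array.

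For complex IV, 5 of 20 assembly genes were higher and none lower in M1, with Cox18 at 1.06 but lost without M0-1, M0-2, M1-2 or M1-3 (0.79 to 1.11). For ATP synthase, the inhibitor Atpif1 was lower in M1 (−0.69, adjusted p = 0.00107) and Atpaf2 higher (0.32, adjusted p = 0.035, lost without any 1 M0 array, M1-2 or M1-3). In M2, 2 assembly genes of complex IV were higher, led by Lrpprc (0.68, adjusted p = 0.0009), of which 1 was left without M0-2 or either M2 array. Pet100 was lower in M2 (−0.61, or −0.40 and not passing without M2-2). In M2, Ttc19 (0.56) and Timmdc1 of the complex I factors (0.52) were also higher, the first lost without M0-1, M0-3 or M2-1 and the second without M0-2 or either M2 array.

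Around the chain, 76 genes of the mitochondrial ribosome (found by symbol), which makes the subunits encoded by mitochondrial DNA, were measured. Of these, 20 were higher in M1 (26.3%, brighter named genes 22.6%) and 6 lower (7.89%, brighter named genes 18.3%), with a median of 0.22, and Mrpl38 rose by 1.01 and Mrpl28 fell by 0.49. The number higher was 11 without M0-2 or M0-3 and 12 without M1-2, and the number lower was 3 without M0-2 or M0-3 and 2 without M1-3. In M2, 10 were higher (13.2%, brighter named genes 13.1%), led by Mrps18b (0.72), or 6, 4, 4, 1 and 6 without M0-1, M0-2, M0-3, M2-1 and M2-2 in turn. Of 12 import and chaperone genes, 4 were higher in M1 and 7 in M2, led by Hspa9 (0.78 and 0.99), with 4 left in M2 without M0-2, M0-3 or M2-2 and 2 without M2-1.

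Of 10 supercomplex and cristae genes, 3 were higher in M1, led by Apool (1.01), and Chchd3 in M2 (0.54). Of 9 coenzyme Q genes, 3 were higher in M1, led by Coq3 (0.91), and in M2 Coq3 was higher (0.43) and Coq2 (−0.45) and Coq8a (−0.35) lower, each lost without M0-3, M1-1 or either M2 array. Of 13 TCA cycle genes, 3 were higher and 3 lower in M1, with Mdh2 at 0.44 and Suclg2 at −0.84, and the number higher was 1 without M0-1 and 0 without M0-3. In M2, 3 were higher (1 without either M2 array), led by Idh3a (0.61), and Suclg2 was lower (−0.61, not passing without M2-2). Of 7 carrier and channel genes, the channel gene Vdac3 was higher (0.64) and the phosphate carrier Slc25a3 lower in M1 (−0.34, lost without M0-2, M0-3 or M1-1), and none passed in M2.

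Of 21 nuclear regulators of respiration, 4 were higher and 3 lower in M1, and 3 higher in M2. Hif1a, a regulator of glycolysis and of the response to low oxygen, rose by 1.60 in M1 (SE 0.17, adjusted p = 2.8e-05), and Pparg fell by 3.85 (SE 0.16, adjusted p = 1.2e-08). Myc was higher in M2 (1.71, SE 0.17, adjusted p = 2.7e-05) and lower in M1 (−1.48, SE 0.15, adjusted p = 1.7e-05). Ppargc1b, a coactivator of genes for respiration, was higher in M2 (1.51, SE 0.13, adjusted p = 1.2e-05) and in M1 (0.72, SE 0.12, adjusted p = 0.00088), whereas Ppargc1a stayed at 14.6 to 18.6 units on every array. The part of any of these regulators in the values of the members was not tested.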

How the data were processed

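The series holds Affymetrix mouse arrays of cultured macrophages (M0, 3 arrays; M1, 3; M2, 2). The authors computed the deposited intensity values by RMA (GenePattern, Expression File Creator), and the table gives them on a linear scale for 45101 probes. Versions are not given in the sources used here. RMA sets all arrays to 1 distribution, so a change in total RNA per cell is not seen. The number of arrays limits the precision.

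The log2 of each value was taken, 64 control probes were left out, and 45037 probes were fitted with limma 3.58.1 (lmFit, eBayes) in R 4.3.3, with 1 mean per condition over all 8 arrays. Residual degrees of freedom were 5, with 6.95 added by the prior. Benjamini-Hochberg adjustment covered every probe fitted, with a threshold of 0.05 and no limit on fold. Genes were named from the 34945 probes with 1 symbol (932 had several), with 1 probe per gene. Means are arithmetic means of units, and folds and percent changes are those of the fitted log2 differences. The script was tested on simulated data with the noise of the fit and 200 changed probes per draw. Of log2 changes of 0.4, 11.2% were recovered in M1 vs. M0 and 7.4% in M2 vs. M0. Of changes of 1, 99.4% and 98.2% were recovered. False calls made up 7.06% and 8.01% of the calls. More probes changed in the data, so these rates do not carry over directly. A gene that did not pass may still differ by such a small amount. Figures used matplotlib 3.10.9 in Python 3.11.15.

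The members and all lists, roles and motifs were chosen with earlier results of these data known. Genes were named as the largest changes past the threshold, the isoform families, examples of each role and the largest changes of each list. The array titles carry replicate numbers, but the correlation of deviations from group means was −0.172 to 0.0547 for the 7 pairs with equal numbers and −0.150 to 0.190 for the 14 other pairs, so arrays were not taken as paired. Alternatives are given in the closing section. Raw images were not analysed here.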

Additional observations from a re-analysis of the deposited data

How the results depend on the processing

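Of single members, 40 calls were followed: all those against M0 and the 5 largest in M1 vs. M2. None of these changed direction under an alternative run, and the direction of the other M1 vs. M2 calls was not followed. The methods' t-test with adjustment called 5 members higher and 10 lower in M1 vs. M0, 2 and 0 in M2 vs. M0, and 1 and 0 in M1 vs. M2. Of the 2 in M2 vs. M0, only 1 was among the 6 of the main run. Without adjustment it called 16 higher and 5 lower in M2 vs. M0 and 6 higher in M1 vs. M2. A limit of 2-fold left 1 and 0, 0 and 0, and 1 and 0, and an adjusted p under 0.01 left 6 and 8 in M1 vs. M0, 3 and 0 in M2 vs. M0, and 7 lower in M1 vs. M2. A fit of only the groups compared gave 0 lower in M2 vs. M0 and 11 lower in M1 vs. M2. Median centring gave 0 lower in M2 vs. M0 beside 6 higher. Testing only probes of at least 64 units gave 2 lower in M2 vs. M0 and 6 higher in M1 vs. M2, the mean of all probes of a gene 2 and 7, and plain _at probes, which 69 members had, 0 lower in M2 vs. M0, 11 lower in M1 vs. M2 and a median of −0.07 there. The cause of these shifts was not tested.

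With the replicate number as a block, 6 members were higher in M1 vs. M0, of which all 6 were among the 10, and 15 lower; the arrays share only a number. Leaving out each array in turn gave 6 to 11 higher and 9 to 18 lower in M1 vs. M0, 0 to 6 and 0 to 2 in M2 vs. M0, and 1 to 5 and 3 to 20 in M1 vs. M2, with medians of −0.09 to −0.03, 0.01 to 0.14 and −0.19 to −0.10. Of the 40 calls of single members followed, 23 were lost with the adjusted t-test, 10 on linear intensities, 9 with the replicate block, 5 with median centring and 1 with further quantile normalization.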
